A study of Mus musculus with 35 samples.

Results

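Expression of 10 genes for non-collagen proteins of the fibroblast extracellular matrix was followed across iPS clones, ES cells and the adult cells from which the clones were made. The genes were Dcn, Lum, Bgn, Fmod, Ogn, Postn, Sparc, Fn1, Fbn1 and Eln, taken as every array probe that carries one of these names, which gave 10 of 27962 gene names and 16 of 41174 gene probes on 35 one-colour Agilent arrays. All adult cells came from 6-week-old mice carrying a Nanog-GFP-IRES-Puro reporter. PαS cells are bone marrow mesenchymal stem cells sorted as CD45-, Ter119-, PDGFRα+ and Sca-1+, OP cells are osteo-progenitors sorted as CD45-, Ter119-, PDGFRα- and Sca-1-, and TTF are tail tip fibroblasts at passage 3. Each source was transduced by retrovirus with Oct3/4, Sox2, Klf4 and c-Myc (4F) or with the same factors without c-Myc (3F), together with DsRed, and GFP+/DsRed- clones were taken through puromycin selection. All iPS clones were grown on mitomycin-C-treated SNL feeder cells, a fibroblast line, with LIF. There were 5 clones in each of 6 groups, written 4F-PαS-iPS, 3F-PαS-iPS, 4F-OP-iPS, 3F-OP-iPS, 4F-TTF-iPS and 3F-TTF-iPS, each clone on 1 array, plus 1 array each of the ES lines EB-3 and RF8 and 1 array each of the PαS, OP and TTF source cells.

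Fibroblasts, osteogenic cells and other stromal cells build most of the body's connective tissue. Dcn, Lum, Bgn, Fmod and Ogn encode decorin, lumican, biglycan, fibromodulin and osteoglycin, small leucine-rich proteoglycans that bind collagen fibrils and shape their growth. Postn and Sparc encode periostin and osteonectin, matricellular proteins that tie cells and growth factors to the matrix, and Sparc is also known as a major product of parietal endoderm. Fn1 encodes fibronectin, an adhesive glycoprotein that binds integrins, while Fbn1 and Eln encode fibrillin-1 and elastin, the microfibril and core proteins of elastic fibres. Mesenchymal genes of this kind are known to be shut down as fibroblasts are reprogrammed, and cultures on feeder layers also hold fibroblasts.

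A level here is the log2 processed signal of a probe minus the 75th percentile of its array, so that 0 is the level of a fairly bright probe and 1 unit is a 2-fold change. Levels were compared between arrays within a probe and never between probes. Summed levels of marker lists add the linear levels of several probes, so that the brightest probes weigh most in them. Where a gene had several probes, 1 probe was followed, chosen for the highest mean level in clones and ES arrays, and its companions served as a check. This probe lay at chr10:97080086-97080145 for Dcn, chr10:97135063-97135122 for Lum, chrX:68879864-68879923 for Bgn, chr1:133937206-133937265 for Fmod, chr13:49108057-49108116 for Ogn and chr3:54519770-54519829 for Postn, all on the plus strand of mouse build mm7 as the array files give it. On the minus strand it lay at chr11:55352704-55355361 for Sparc, chr1:71832689-71834926 for Fn1, chr2:125041844-125041903 for Fbn1 and chr5:133674539-133674598 for Eln. The Sparc and Fn1 intervals span 2658 and 2238 bases, far more than a probe of 60 bases, so these 2 probes cross an exon junction. In the RefSeq annotation of GRCm38, Dcn and Lum are next to each other on chromosome 10, and Ogn is in a row with the related genes Omd and Aspn on chromosome 13.

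Among the RefSeq promoter sequences (GRCm38.p6, 250 bases before to 50 bases after a transcript start), 6 of the 10 genes had at least 1 entry. Those of 4 genes are shown because Ogn (in OP and TTF clones) and Postn (in OP clones) were called between 3F and 4F clones, calls that did not hold under every setting, and Bgn and Fbn1 varied together with Postn among the clones (both described below). Capitals mark matches, on either strand, to a TATA box (TATAAA), a GC box (GGGCGG), an AP-1 site (TGANTCA), an MCAT element (GGAATG) or a CCAAT box (CCAAT).
Ogn, chr13:49607765-49608064, plus strand: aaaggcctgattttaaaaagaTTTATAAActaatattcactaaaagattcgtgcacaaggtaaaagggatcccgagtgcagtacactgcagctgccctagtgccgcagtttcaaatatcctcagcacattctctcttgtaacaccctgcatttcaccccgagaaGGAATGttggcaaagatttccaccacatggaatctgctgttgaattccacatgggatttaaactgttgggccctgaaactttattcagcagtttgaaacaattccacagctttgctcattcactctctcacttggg
Postn, chr3:54360857-54361156, plus strand: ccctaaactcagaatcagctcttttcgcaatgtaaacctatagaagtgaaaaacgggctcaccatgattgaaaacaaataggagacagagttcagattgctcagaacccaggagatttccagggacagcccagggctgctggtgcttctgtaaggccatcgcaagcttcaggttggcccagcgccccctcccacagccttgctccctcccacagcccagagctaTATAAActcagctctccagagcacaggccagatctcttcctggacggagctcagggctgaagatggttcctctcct
Bgn, chrX:73483351-73483650, plus strand: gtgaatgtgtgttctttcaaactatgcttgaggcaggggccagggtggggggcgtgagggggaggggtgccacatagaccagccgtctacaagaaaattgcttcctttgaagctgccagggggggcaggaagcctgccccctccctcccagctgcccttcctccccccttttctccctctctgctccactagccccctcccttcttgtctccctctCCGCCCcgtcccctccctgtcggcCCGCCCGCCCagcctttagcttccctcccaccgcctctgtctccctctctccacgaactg
Fbn1, chr2:125506389-125506688, minus strand: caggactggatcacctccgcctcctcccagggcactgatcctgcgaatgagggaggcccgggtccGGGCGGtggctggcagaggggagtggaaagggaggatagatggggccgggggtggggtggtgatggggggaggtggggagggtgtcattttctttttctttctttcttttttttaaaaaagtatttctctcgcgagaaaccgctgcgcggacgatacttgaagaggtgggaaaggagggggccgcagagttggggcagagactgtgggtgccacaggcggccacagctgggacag

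The Postn promoter held a TATA box whose first base lay at position -26 from the start. The Ogn promoter held overlapping TATA matches at -229 and -227 and an MCAT element at -86. Bgn held GC boxes at -34, -10 and -6, of which the last pair overlap, and Fbn1 held a GC box at -185. A second Postn start, the Fmod promoter and the Sparc promoter were also searched. The second Postn start (chr3:54359017-54359316) and Fmod held a CCAAT box each, and Sparc held none of these motifs. Among all 32851 promoters of the same length, a TATA box was found in 13.6%, a GC box in 35.7%, an MCAT element in 14.7%, a CCAAT box in 37.4% and an AP-1 site, which none of the searched promoters held, in 7.81%. None of these motifs was in all 4 of the promoters shown.

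All 30 clones were scanned on 1 day on 8 slides. The source arrays and the EB-3 array shared 1 slide on another day, and the RF8 array was alone on a slide on a further day, so a difference between a lone array and the clones cannot be told apart from the scan day and the slide. Of the fibroblast markers without matrix genes (15, among them Thy1, Pdgfrb, Prrx1 and Twist2), 14 or 15 were well above background in each clone, and their summed linear level was 146 to 565 among clones, 31.5 in EB-3, 209 in RF8, and 1085, 746 and 716 in the PαS, OP and TTF sources. Prrx1, Twist2, Fap, Cd44 and Ly6a were not well above background in EB-3. Blood markers summed to 549 in the TTF source, with 7 of 7 above background, against 1.34 to 10.9 in the clones, and bone markers to 58.8 in the OP source, with 6 of 6 above background, against 2.66 and 0.444 in the PαS and TTF sources. Pdgfra and Ly6a (Sca-1) were well above background in the OP source, at levels of 1.58 and 3.54, in cells sorted as negative for both. Sorted cells were expanded in culture for about 2 weeks before transduction, and whether the source RNA was taken before or after this is not given in the sources used here. In 4F-OP-iPS #1 and #3 and 4F-TTF-iPS #1, 4 of 8 pluripotency markers were well above background, with a summed level of 10.8, 10.6 and 11.1, against a median of 383 over all clones. Clone #2 of 4F-OP-iPS was also low, at 17.7, although 8 of 8 were above background. In RNA from a mixed culture, fewer cells of a type and less RNA per cell cannot be told apart.

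All 10 genes passed the filter on dim probes, each through at least 1 clone group, and 8 of them were well above background in every clone. Lum was so in 24 of 30 clones and Fmod in 27. Of the other 6 probes, the second Dcn probe did not pass, and the second Bgn probe was well above background in 1 clone. No probe of these genes was saturated. Thus transcripts of these genes were measured in most iPS clones.

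**Figure D1:**
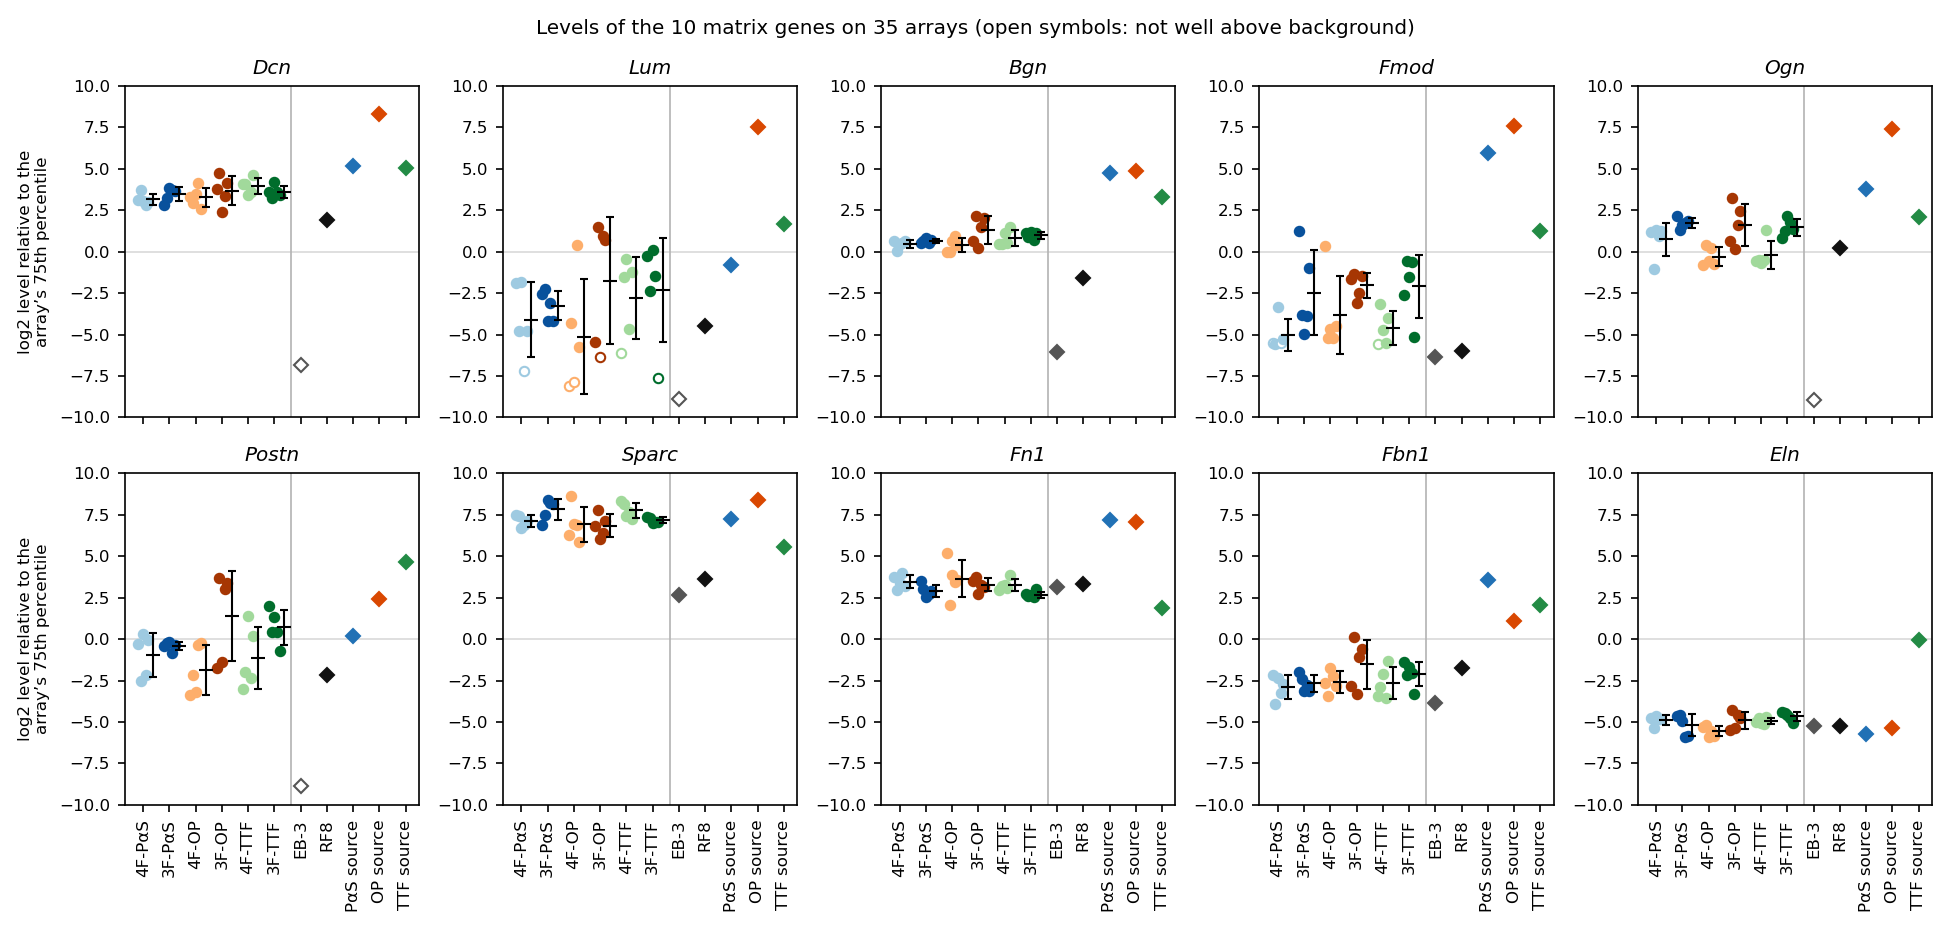
Levels of the 10 genes on all 35 arrays, as log2 of the processed signal relative to the array's 75th percentile. Points are single arrays, in the 6 clone groups of 5 on the left and the ES and source arrays on the right of the grey line, open symbols are not well above background, and the widest scatter among clones is that of Lum, from values not well above background to 1.51.

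Among the 5 proteoglycans, Bgn and Dcn varied least from clone to clone and Lum most. Dcn lay between 2.41 and 4.74 in all 30 clones, a 5.01-fold range, with group means from 3.15 ± 0.34 (SD, n = 5) in 4F-PαS-iPS to 3.96 ± 0.46 (SD, n = 5) in 4F-TTF-iPS. The 6 clone groups overlapped. The OP source, at 8.34, and the PαS and TTF sources, at 5.20 and 5.06, were all higher than every clone, while RF8, at 1.93, and EB-3, at -6.83 and not well above background, were lower than every clone. In the order of Dcn levels the PαS and TTF sources were 0.14 apart, and no 2 neighbouring clone groups were further apart than 0.27, which is less than the SD within the groups.

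Bgn followed the same order of sources, clones and ES cells. Its levels in clones were between -0.01 and 2.15, a 4.47-fold range, with means of 0.47 ± 0.25, 0.64 ± 0.11, 0.39 ± 0.41, 1.31 ± 0.83, 0.82 ± 0.48 and 1.00 ± 0.21 (SD, n = 5 each) in 4F-PαS-iPS, 3F-PαS-iPS, 4F-OP-iPS, 3F-OP-iPS, 4F-TTF-iPS and 3F-TTF-iPS. The OP, PαS and TTF sources were at 4.88, 4.74 and 3.28, RF8 at -1.57 and EB-3 at -6.03. Neighbouring clone groups in this order differed by less than the larger of their SDs, whereas both ES arrays were lower than the lowest clone and all 3 sources higher than the highest.

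Lum, which in the cornea and skin spaces collagen fibrils, was at or near background in some clones and bright in others. The 5 clones of 3F-OP-iPS were at -5.47, 1.51, -6.38, 0.92 and 0.68, of which #3 was not well above background. The 5 clones of 4F-OP-iPS were at -8.13, -4.32, -7.88, 0.41 and -5.75, of which #1 and #3 were not well above background. With the 6 clones that were not well above background set at their bound, the range over all clones was at least 208-fold. The OP source was at 7.54, the TTF source at 1.67 and the PαS source at -0.80, within the range of the clones, while EB-3 was not well above background and RF8 was at -4.46.

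Fmod, a close relative of Lum that acts in tendon and cartilage, showed a range of at least 114-fold over clones, 3 of which were not well above background. Its levels in 3F-PαS-iPS were 1.26, -3.81, -4.98, -3.87 and -0.96, and in 4F-PαS-iPS -5.49, -5.58, -3.34, -5.53 and -5.25. In the 3F-PαS-iPS group #1 and #5 were high and the other 3 were within or close to the values of the 4F-PαS-iPS group. The highest clones over all groups were 3F-PαS-iPS #1, at 1.26, and 4F-OP-iPS #1, at 0.36. All were lower than the OP and PαS sources, at 7.60 and 5.97, and the TTF source, at 1.23, was just below the highest clone.

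Ogn, first described as a bone-associated protein, was the gene called in 2 of the 3 comparisons of 3F with 4F clones given below. Its levels were 0.65, 3.26, 0.15, 1.60 and 2.44 in 3F-OP-iPS and -0.81, 0.41, -0.59, 0.21 and -0.74 in 4F-OP-iPS. They were 0.80, 1.27, 2.14, 1.80 and 1.40 in 3F-TTF-iPS and -0.54, -0.52, -0.70, -0.52 and 1.32 in 4F-TTF-iPS. In both pairs most 3F clones were higher, but the pairs overlapped through 3F-OP-iPS #3 and through 4F-TTF-iPS #5. In 3F-PαS-iPS they were 2.17, 1.29, 1.62, 1.74 and 1.88, and in 4F-PαS-iPS 1.20, -1.02, 1.31, 0.96 and 1.24. These 2 groups also overlapped, and #2 was the lowest of all clones. The OP, PαS and TTF sources were at 7.43, 3.79 and 2.07, RF8 was at 0.23, within the range of the clones, and EB-3, at -8.92, was not well above background.

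Postn levels were -1.76, 3.70, -1.38, 3.0 and 3.36 in 3F-OP-iPS and -3.40, -2.16, -3.17, -0.38 and -0.24 in 4F-OP-iPS. Thus #2, #4 and #5 of 3F-OP-iPS were the 3 highest of all 30 clones, and #1 and #3 lay within the 4F-OP-iPS values. The lowest were 4F-OP-iPS #1 and #3 and 4F-TTF-iPS #1 (-3.0), the same 3 clones in which 4 of 8 pluripotency markers were above background. Means in the other groups were -0.96 ± 1.31 in 4F-PαS-iPS, -0.41 ± 0.26 in 3F-PαS-iPS, -1.15 ± 1.87 in 4F-TTF-iPS and 0.70 ± 1.04 in 3F-TTF-iPS (SD, n = 5 each). Among the sources the order differed from that of the proteoglycans, with the TTF source at 4.65, the OP source at 2.43 and the PαS source at 0.16, of which the OP and PαS values were within the range of the clones.

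Sparc levels in the clones overlapped those of the PαS and OP sources. Clones were between 5.86 and 8.65, the PαS source was at 7.26, the OP source at 8.38 and the TTF source at 5.57, below every clone. EB-3 and RF8 were at 2.67 and 3.60, below every clone and every source. The group means were 7.13 ± 0.35 in 4F-PαS-iPS, 7.83 ± 0.64 in 3F-PαS-iPS, 6.92 ± 1.06 in 4F-OP-iPS, 6.84 ± 0.68 in 3F-OP-iPS, 7.76 ± 0.45 in 4F-TTF-iPS and 7.16 ± 0.17 in 3F-TTF-iPS (SD, n = 5 each).

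Fn1 levels of both ES arrays lay within the range of the clones. The clones were between 2.08 and 5.21, an 8.75-fold range, with group means from 2.69 ± 0.18 in 3F-TTF-iPS to 3.63 ± 1.12 in 4F-OP-iPS (SD, n = 5 each), and EB-3 and RF8 were at 3.12 and 3.34. The PαS and OP sources were at 7.22 and 7.08, above every clone, but the TTF source was at 1.90, below every clone. Fbn1 was between -3.89 and 0.15 in clones, at -3.84 in EB-3 and -1.74 in RF8, and at 3.57, 1.10 and 2.06 in the PαS, OP and TTF sources. Hence the highest Fbn1 level of all arrays was in the PαS source, and the ES arrays fell within the range of the clones. Eln was dim in all clones, from -5.91 to -4.26, where the lowest level called well above background was itself between -6.44 and -4.82 depending on the clone. EB-3, RF8, the PαS source and the OP source had Eln levels of -5.24, -5.27, -5.73 and -5.34, and the TTF source alone was bright, at -0.08.

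The first comparison was of 3F with 4F clones of the same source, which asks what leaving out c-Myc changes. In OP-derived clones, 2 of the 10 genes rose: Ogn by 1.92 ± 0.50 (SE) on the log2 scale, or 3.80-fold (adjusted p = 0.0163), and Postn by 3.26 ± 0.99 (SE), or 9.56-fold (adjusted p = 0.0357, limma with Benjamini-Hochberg adjustment over all probes). Calls required an adjusted p under 0.05 together with a 2-fold difference or more, and by this rule 4.61% of all probes were higher in 3F-OP-iPS. With quantile normalization 854 of 1264 called probes were higher, against 1304 of 1489 here. Bgn passed the adjusted p, at 0.0360, but its 1.89-fold difference was under the minimum. The other differences were 3.39 for Lum (adjusted p = 0.208), 1.80 for Fmod (0.285), 1.05 for Fbn1 (0.221), 0.66 for Eln (0.0875), 0.41 for Dcn (0.465), -0.08 for Sparc (0.919) and -0.34 for Fn1 (0.567). Lum was well above background in 7 of the 10 OP clones. The Fmod value includes 4F-OP-iPS #1, at 0.36 against -5.20 to -4.46 in the rest of its group. The median over the 10 genes was 0.98, and over all probes 0.02. No gene had all 3F-OP-iPS clones above all 4F-OP-iPS clones, against 2.31% of all probes, and the same held in TTF and PαS clones, against 9.53% and 1.29%.

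Both calls in the OP clones were lost when certain single clones were left out. Ogn lost its call without 4F-OP-iPS #1 (difference 1.80, adjusted p = 0.0525), 3F-OP-iPS #2 (1.51, 0.0569) or 3F-OP-iPS #5 (1.72, 0.0529), and Postn without any of 4F-OP-iPS #1, #2 and #3 and 3F-OP-iPS #2, #4 and #5 (differences of 2.68 to 3.18, adjusted p up to 0.109). Both also lost it without the 3 clones in which 4 of 8 pluripotency markers were above background, with an Ogn difference of 1.66 (adjusted p = 0.138) and a Postn difference of 2.31 (0.265). Without 4F-OP-iPS #2 as well, which left 2 clones in that group, the differences were 1.89 (0.236) and 1.69 (0.602). Both calls were likewise lost with the slide as a random block (1.86, 0.0797; 3.13, 0.155). No slide held both 3F-OP-iPS and 4F-OP-iPS clones, so no within-slide value could be given.

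The high clones of 3F-OP-iPS were the same for several genes. Clones #2, #4 and #5 ranked 1, 2 and 3 of 30 for Lum, 1, 4 and 2 for Bgn, 1, 3 and 2 for Fbn1 and 1, 3 and 2 for Postn, in this order of clones. For Ogn they ranked 1, 9 and 2, and for Dcn 1, 19 and 4. The summed level of the fibroblast markers, which hold none of these genes, was 565, 394 and 471 in these clones and 251 and 214 in 3F-OP-iPS #1 and #3, and the part of this difference in the matrix genes was not tested. Over the 15 markers the median difference of 3F-OP-iPS from 4F-OP-iPS was 0.22, and 3 were called higher, where 4.61% of all probes were. Within 3F-OP-iPS, #2 shared a slide with #1, and #4 and #5 shared one with #3, so high and low clones occurred on both slides.

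**Figure D2:**
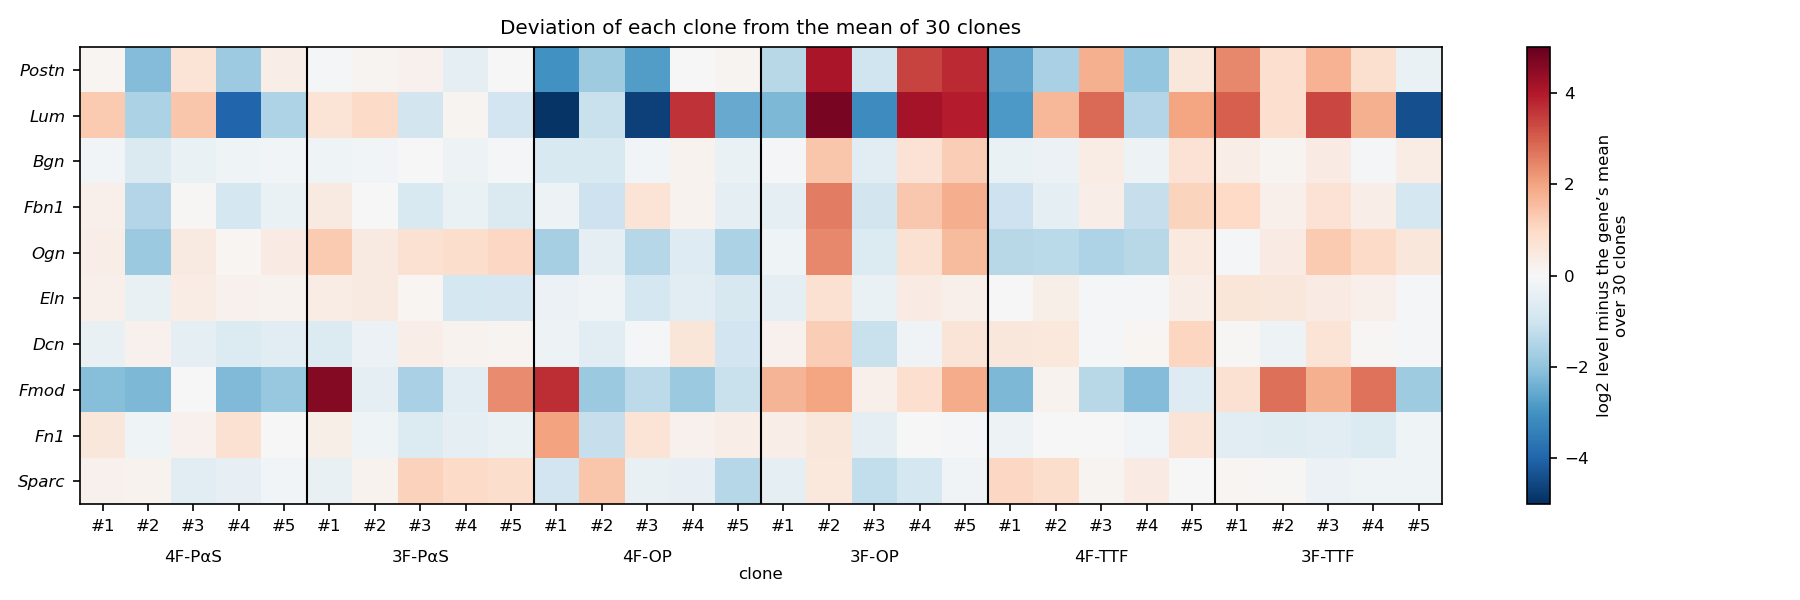
Deviation of each of the 30 clones (columns, by group) from the mean of the gene over all clones (rows, 10 genes), as a log2 difference on a colour scale from -5 to 5. The columns of 3F-OP-iPS #2, #4 and #5 are raised for Postn, Lum, Bgn, Fbn1 and Ogn, and those of 4F-OP-iPS #1 and #3 and 4F-TTF-iPS #1 are lowered for Postn and Lum.

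In TTF-derived clones, Ogn alone rose, by 1.67 ± 0.50 (SE) or 3.18-fold (adjusted p = 0.0291, limma), where 4.45% of all probes were higher in 3F-TTF-iPS. Under quantile normalization 986 of 1895 called probes were higher, against 1258 of 1824. Differences of 2.50 for Fmod (adjusted p = 0.117) and 1.85 for Postn (0.222) did not pass, and those of the other 7 genes were between -0.60 and 0.54. The median over the 10 genes was 0.38, against 0.04 over all probes. The Ogn call was lost without any of 4F-TTF-iPS #1, #2, #3 and #4 and 3F-TTF-iPS #3, #4 and #5 (differences of 1.51 to 1.69, adjusted p up to 0.0730). With the slide as a random block the Ogn difference was 1.39 (adjusted p = 0.303), and with the slide as a fixed block it was -0.086 (adjusted p = 1), a value that rests on 4F-TTF-iPS #5 and 3F-TTF-iPS #1, the only clones of the 2 groups on slides with other groups. Of the 4 bone markers tested, Bglap1, an osteocalcin gene, moved with Ogn in both comparisons, higher by 1.83 in 3F-OP-iPS (adjusted p = 0.00540) and by 1.71 in 3F-TTF-iPS (0.00630), and the other 3 were not called. The bone markers summed to 3.21 to 17.0 in 3F-OP-iPS and 0.874 to 10.6 in 4F-OP-iPS, and to 4.85 to 18.4 and 1.47 to 5.95 in 3F-TTF-iPS and 4F-TTF-iPS. In PαS clones they went the other way, with median sums of 6.37 in 3F-PαS-iPS and 9.78 in 4F-PαS-iPS. The median difference of the 4 tested markers there was -0.33, and none was called. Over the clones Ogn had an r of 0.673 with the mean of the 3 bone markers measured in all clones, and 0.366 after group means were taken off, and the part of these markers in the Ogn differences was not tested.

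In PαS-derived clones no gene passed, and 0.0177% of all probes did in either direction. The largest difference was that of Fmod, at 2.57 ± 1.06 (SE; adjusted p = 0.193, unadjusted p = 0.0222 in limma), and the only other over 2-fold was Ogn, at 1.00 ± 0.50 (adjusted p = 0.273). The Fmod difference includes 4F-PαS-iPS #1 and #4, which were not well above background, and the high 3F-PαS-iPS #1 (1.26). The median over the genes was 0.42. No slide held both 3F-PαS-iPS and 4F-PαS-iPS clones, so no within-slide value could be given here either. Whether the 3F and 4F difference itself depended on the source was tested as an interaction, and none of the 10 genes passed. The lowest adjusted p was 0.132, for Eln between PαS and OP clones (-0.96), where 1.18% of all probes passed, and 0.172, for Sparc between PαS and TTF clones (1.30), where 1.07% did and the second Sparc probe was at 0.28 (0.708). Between OP and TTF clones no probe passed in limma, with 1259 at an unadjusted p under 0.05, of which none was of these genes. For Ogn, the interactions were -0.92 ± 0.70, -0.67 ± 0.70 and 0.25 ± 0.70 (SE), so that the difference seen in OP and TTF clones was not shown to differ from that in PαS clones.

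The second comparison was of clones by their source, which asks whether a trace of the source remained. None of the 10 genes passed between PαS and OP clones, PαS and TTF clones or OP and TTF clones, where 1.99%, 0.728% and 0.0212% of all probes did. The lowest adjusted p values were 0.181 for Sparc, 0.60 ± 0.27 (SE) higher in PαS than in OP clones, 0.262 for Dcn, which was -0.49 ± 0.24 in PαS relative to TTF clones, and 0.350 for Eln, -0.43 ± 0.18 in OP relative to TTF clones. At an unadjusted p under 0.05 there were 1, 1 and 2 of the 10 genes, against 6627, 5339 and 3289 of 28300 probes. Over the 10 genes and the 3 comparisons, the differences lay between -1.12, for Lum in PαS relative to TTF clones, and 0.60.

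The third comparison was of the source cells with the clones. Averaged over the 3 source arrays, 9 of the 10 genes were higher than in the clones, where 16% of all probes were, and Sparc was not called, at -0.21 ± 0.37 (SE; adjusted p = 0.642). The differences were 8.28 ± 1.01 for Fmod, 6.03 ± 1.64 for Lum, 4.66 ± 0.52 for Fbn1, 3.58 ± 0.48 for Ogn, 3.53 ± 0.27 for Bgn, 2.80 ± 0.95 for Postn, 2.67 ± 0.32 for Dcn, 2.19 ± 0.33 for Fn1 and 1.30 ± 0.24 for Eln (SE; adjusted p at most 0.0121, limma). For Fmod 3 and for Lum 6 of the 30 clones were not well above background, so these 2 sizes rest partly on unmeasured levels. All 3 source arrays lay above all 30 clones for Dcn, Bgn and Fbn1, against 7% of all probes. The fit assumes that a source array varies like the clones. The Postn call was lost with the slide as a random block (2.80, adjusted p = 0.0738) and the Eln call with normexp background correction (0.51, 0.0540). Single source arrays decided 3 calls: without the TTF source the Eln difference was -0.51 (adjusted p = 0.130) and the Postn difference 1.68 (0.211), and without the OP source the Lum difference was 3.66 (0.119). Calls were kept but values moved by over 1.5 times for Fn1, at 1.28 without the PαS source, 1.35 without the OP source and 3.93 without the TTF source, for Eln, at 2.31 without the PαS source and 2.12 without the OP source, and, without the OP source, for Dcn (1.60) and Ogn (2.08).

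Each source array was also set against the 10 clones made from it. The PαS source was higher for 6 genes, where 13.6% of all probes were: Fmod by 9.73, Fbn1 by 6.35, Bgn by 4.19, Fn1 by 4.02, Ogn by 2.55 and Dcn by 1.89 (adjusted p at most 0.0150). The OP source was higher for 7, against 16.4% of all probes: Lum by 10.98, Fmod by 10.53, Ogn by 6.78, Dcn by 4.85, Bgn by 4.02, Fn1 by 3.61 and Fbn1 by 3.16 (adjusted p at most 0.00655). The TTF source was higher for 5, against 15.5% of all probes: Postn by 4.87, Eln by 4.72, Fmod by 4.58, Fbn1 by 4.45 and Bgn by 2.38 (adjusted p at most 0.0348). The Lum difference includes 3 of 10 OP clones that were not well above background, and the Fmod differences of the PαS and TTF sources include 2 and 1 such clones, so that these sizes rest partly on unmeasured levels. Counted without a test, 7 of the genes on each source array were above all 10 clones of that source, against 25.7%, 26.3% and 28.7% of all probes for PαS, OP and TTF. Bgn, Fmod and Fbn1 were called in all 3 tests, Lum on the OP array, and Postn and Eln on the TTF array, but with the slide as a random block the Fmod call of the TTF source was lost (4.55, adjusted p = 0.0683). Whether the source arrays differed from each other was not tested, because each is 1 array.

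Sparc was lower in the TTF source than in TTF clones by 1.90 ± 0.64 (SE; adjusted p = 0.0170), where 22.1% of all probes were lower, and its second probe was also lower, at -1.52 (adjusted p = 0.00797). The main Fn1 probe was at -1.07 ± 0.57 in the TTF source relative to TTF clones (adjusted p = 0.123). Of the other Fn1 probes, 1 was called lower, at -2.07 (adjusted p = 0.00395), and 1 was not, at -1.23 (0.0840). Over all probes the median difference from the clones was -0.13 for the mean of the sources, -0.22 for the PαS source and -0.19 for the TTF source.

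**Figure D3:**
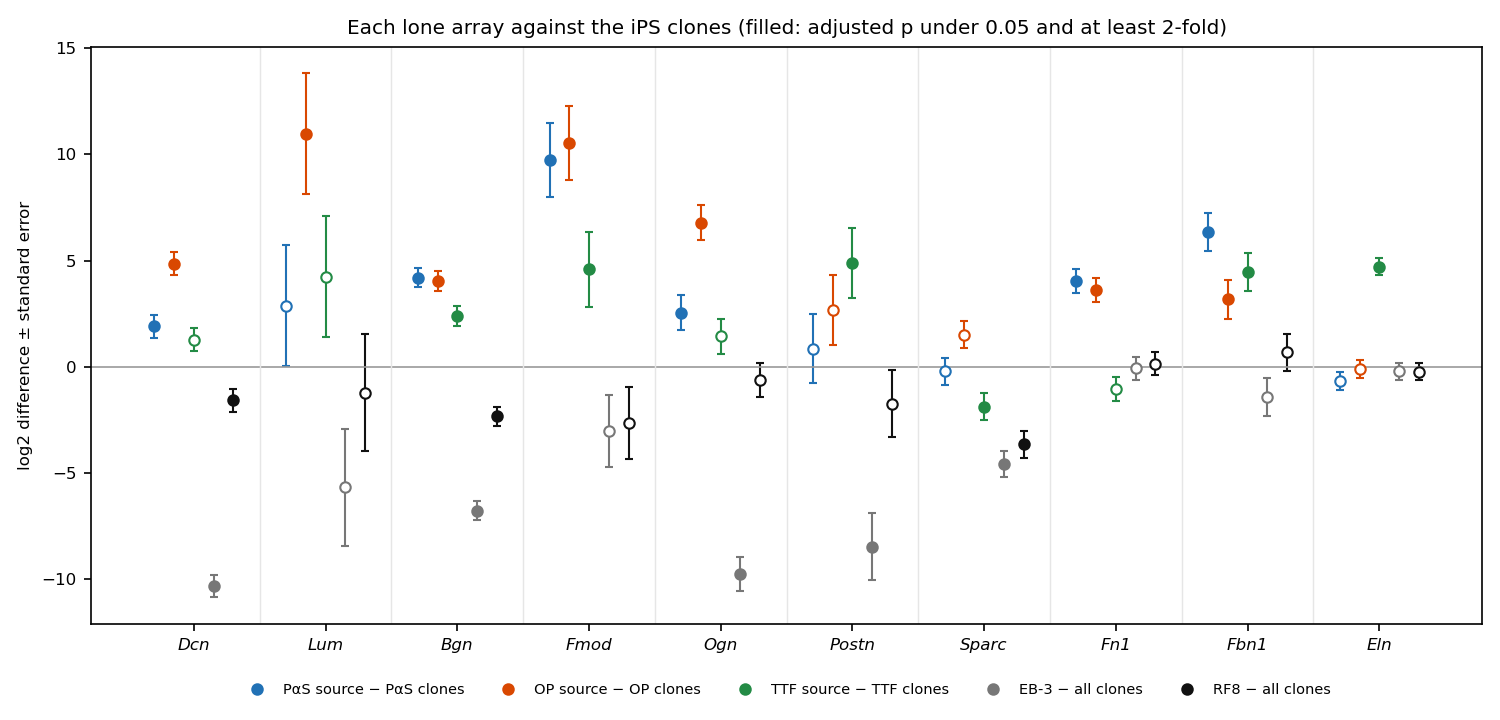
Difference of each source array from its own 10 clones and of each ES array from all 30 clones, in log2 with the standard error of the fit, for the 10 genes. Filled symbols passed an adjusted p under 0.05 and 2-fold, and wide gaps are seen at Fmod and Lum for the OP source (10.53 and 10.98, the latter against 10 clones of which 3 were not well above background) and below 0 at Dcn, Ogn and Postn for EB-3, where the plotted EB-3 level was not well above background.

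The fourth comparison was of the ES lines with the clones, and the 2 lines differed widely from each other. EB-3 was lower for 5 genes, where 17.8% of all probes were. Dcn was at least 1114-fold lower, Ogn at least 174-fold and Postn at least 74.1-fold, bounds given because the EB-3 level was not well above background. With normexp background correction the Postn difference was -3.41 and was not called (adjusted p = 0.0508), so that this bound depends on how background was treated. Bgn was lower by 6.80 ± 0.45 on the log2 scale and Sparc by 4.60 ± 0.62 (SE; adjusted p for the 5 genes at most 0.000126, limma). Lum, also not well above background in EB-3, was not called (adjusted p = 0.0963, limma). No bound is given for it, because 6 of the 30 clones were not well above background either. Fmod (-3.03), Fbn1 (-1.43), Eln (-0.22) and Fn1 (-0.09) did not pass. By measured values EB-3 was below all 30 clones for 7 genes, against 22.5% of all probes. Among these are Lum and Fmod, for which 6 and 3 clones were not well above background, so that EB-3 and those clones have no order.

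RF8 was lower for 3 genes, where 12.3% of all probes were: Sparc by 3.67 ± 0.62, Bgn by 2.35 ± 0.45 and Dcn by 1.60 ± 0.53 (SE; adjusted p at most 0.0210). The second Bgn probe, dim in the clones, pointed the other way and was not called, as given below. Ogn (-0.62), Postn (-1.76), Lum (-1.23), Fmod (-2.65), Fbn1 (0.68), Eln (-0.25) and Fn1 (0.13) did not pass. By measured values RF8 was below all 30 clones for Dcn, Bgn, Sparc and, with the same limit, Fmod, against 18.3% of all probes. RF8 was at least 368-fold above EB-3 for Dcn, at least 113-fold for Ogn, at least 21.9-fold for Postn and at least 4.38-fold for Lum, bounds for the same reason as above. It was above EB-3 by 4.46 on the log2 scale for Bgn and 2.11 for Fbn1, and within 0.93 of it for Sparc, Fmod, Fn1 and Eln. The fibroblast markers, at a summed 31.5 in EB-3 and 209 in RF8, moved in the same direction, and their part in these differences was not tested. All 12 endoderm markers tested were lower than in the clones in both EB-3 and RF8, as Sparc was, with sums of 5.10 and 10.1 against 47.2 to 598 in the clones, and their part in the Sparc differences was not tested either. The methods give the culture of ES and iPS cells by reference, the feeder cells of the 2 ES lines are not described further in the sources used here, and with 1 array each on different days the difference between them has no replicate check. On the slide that EB-3 shared with the sources, the PαS, OP and TTF sources were above EB-3 for Bgn by 10.77, 10.91 and 9.31 and for Sparc by 4.59, 5.70 and 2.90, while for Fn1 the PαS and OP sources were above it by 4.09 and 3.95 and the TTF source was at -1.22 relative to it.

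Among the 30 clones the 10 genes did not vary as one group. Pearson's r over clones was 0.84 for Postn and Bgn, 0.82 for Postn and Lum, 0.82 for Bgn and Fbn1, 0.79 for Postn and Fbn1, 0.72 for Lum and Fbn1 and 0.69 for Postn and Ogn. After the mean of each clone group was taken off, these were 0.80, 0.83, 0.81, 0.77, 0.72 and 0.59, and without 3F-OP-iPS #2, #4 and #5 they were 0.69, 0.74, 0.63, 0.61, 0.59 and 0.56. Other pairs of these genes were weaker. For Lum and Bgn, Bgn and Ogn, Fbn1 and Ogn, and Lum and Ogn, r was 0.66, 0.62, 0.57 and 0.51. Without the same clones of 3F-OP-iPS these were 0.51, 0.43, 0.34 and 0.35. Sparc and Fn1 followed these genes weakly or not at all. Sparc had an r of -0.01 with Bgn, -0.09 with Postn and -0.47 with Fn1, though 0.43 with Dcn, and Fn1 had an r of 0.02 with Bgn, -0.19 with Postn, -0.23 with Lum and 0.22 with Fbn1. After group means were taken off, the Fn1 values were 0.26 with Bgn, 0.005 with Postn, -0.12 with Lum and 0.39 with Fbn1. Dcn and Lum, which are neighbours on chromosome 10, had an r of 0.48. The clones share groups and slides, so that these values are descriptions and carry no p.

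**Figure D4:**
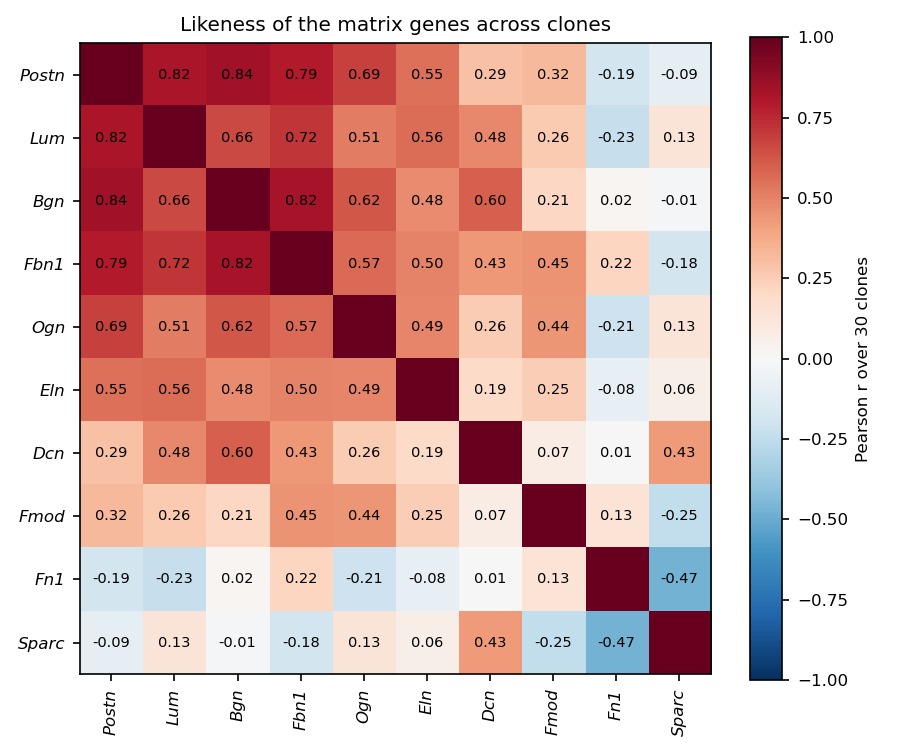
Pearson's r between each pair of the 10 genes over the 30 clones, on a colour scale. Postn, Bgn, Lum, Fbn1 and Ogn form a block of positive values, up to 0.84 for Postn and Bgn, and the rows of Fn1 and Sparc hold mostly lower values. The row of Sparc holds values near or below 0, down to -0.47 with Fn1, except for 0.43 with Dcn.

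The genes outside the 10 that were most alike in pattern differed accordingly, among 20281 probes well above background in all clones. For Sparc they were Col4a1 (r = 0.958), 1200002N14Rik (0.945) and Col4a2 (0.942), of which Col4a1 and Col4a2 encode the basement membrane chains of type IV collagen. The mean level of the endoderm markers, a list that holds Col4a1 and Col4a2, followed Sparc with an r of 0.927, and that of the fibroblast markers with -0.133. The summed level of the 12 endoderm markers was 47.2 to 598 in clones, 5.10 in EB-3, 10.1 in RF8 and 50.8, 29.7 and 46.7 in the PαS, OP and TTF sources, so that the PαS and OP sources had Sparc levels within the range of the clones with endoderm markers at the low end of the clones or below it. Among clones Sparc had an r of 0.898 with Sox17 and 0.854 with Gata6, 2 transcription factors of the endoderm. For Postn the most alike were Mrvi1 (0.957), Itga8 (0.949) and Igfbp7 (0.935), and its r was 0.923 with Lox, which crosslinks elastin and collagen, and 0.892 with Acta2, smooth muscle actin. For Bgn they were Rhoj (0.914), Alcam (0.906) and Thy1 (0.904), and for Fbn1 Thy1 (0.847), Rhoj (0.834) and Gpr176 (0.833).

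The mean of the fibroblast markers, for which 14 of them were used, followed Bgn with an r of 0.834, Fbn1 with 0.827, Postn with 0.687, Lum with 0.646, Dcn with 0.635, Ogn with 0.411 and Fn1 with 0.186. After group means were taken off, these were 0.801, 0.839, 0.716, 0.621, 0.558, 0.604 and 0.391. The genes most like Ogn were Wbscr17 (0.888), Lpl (0.881) and Loxl1 (0.877). Those most like Dcn were 4732435N03Rik (0.829), Fgf7 (0.771) and Pftk1 (0.763), and those most like Lum were Iigp1 (0.868), ENSMUST00000064814 (0.861) and Cdh11 (0.841). The highest values for Fn1 were with Lrp1 (0.848), Angel2 (0.838) and Dnmbp (0.833). Its r was -0.451 with the mean of the endoderm markers, -0.347 with Sox17 and -0.649 with Foxa2, an endoderm factor. With group means taken off, the Foxa2 value was -0.497. Fmod and Eln, which were dim, had no partner over 0.77: the highest were Sspn (0.753), BQ952480 (0.698) and Vamp4 (0.691) for Fmod and Setbp1 (0.762), Insl5 (0.732) and Zfp521 (0.714) for Eln.

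**Figure D5:**
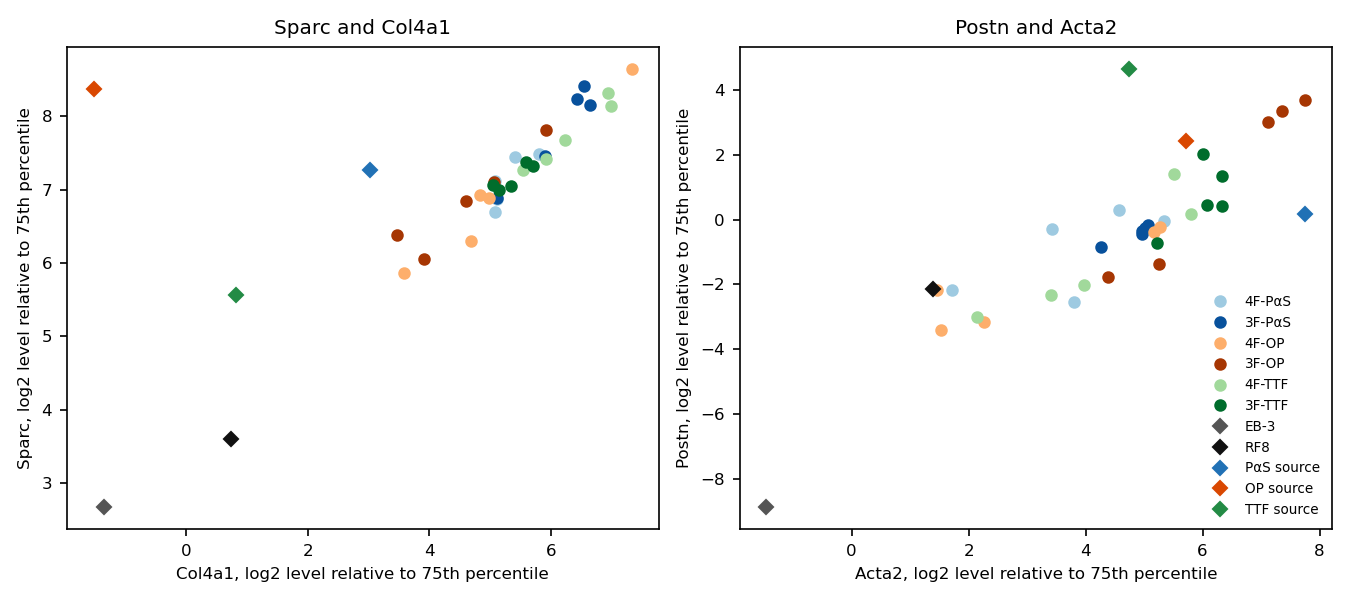
Level of Sparc against Col4a1 and of Postn against Acta2, in log2 relative to the 75th percentile, with 1 circle for each clone coloured by group and 1 diamond for each ES and source array. Among the 30 clones Sparc follows Col4a1 (r = 0.958) and Postn follows Acta2 (r = 0.892), while the OP source has a Sparc level of 8.38 with less Col4a1 than any clone and the EB-3 level of Postn was not well above background.

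Other matrix genes were counted from a fixed list. Of 35 further genes on the array (other small leucine-rich proteoglycans, matricellular proteins, elastic fibre proteins and a remainder such as nidogens, versican and Tnxb), 34 were tested. In 3F-OP-iPS relative to 4F-OP-iPS 10 rose and 0 fell, where 4.61% of all probes were higher, with a median of 1.24 over the list. With the slide as a random block 1 of the 34 was called, with normexp background correction 6, without the 3 clones named above 1, and without 4F-OP-iPS #2 as well 0. Among the 10 were Mfap4 at 4.20 (adjusted p = 0.0214), Mfap2 at 3.29 (0.0458) and Prelp at 2.66 (0.0233), of which Mfap4 was well above background in 2 of 5 and Mfap2 in 4 of 5 4F-OP-iPS clones. Aspn, a proteoglycan close to Dcn, was well above background in 3F-OP-iPS #2, #4 and #5 (-2.31, -3.48 and -2.67) and in no 4F-OP-iPS clone. It was called higher (adjusted p = 0.0107, limma), but the group means hold unmeasured levels on both sides, so no fold is given. In TTF clones Sparcl1, a relative of Sparc, rose by 3.42 (adjusted p = 0.0216) and Nid1, a basement membrane protein, fell by 1.31 (0.0171), where 4.45% and 2% of all probes rose and fell, and in PαS clones none of the 34 was called. Of the fibroblast markers, Acta2 (3.24), Tagln (2.52) and Prrx1 (1.29) rose in 3F-OP-iPS, 3 of 15, and S100a4 (-1.40) and Ly6a (-3.65) fell in 3F-TTF-iPS.

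By source, none of the 34 matrix genes was called. In the mean of the sources 19 were higher and 4 lower than in the clones, against 16% and 24.2% of all probes, with Lox higher by 6.48 and Mfap5 by 6.03. Of the 19, Aspn, Omd and Dspg3 were each well above background in 3 of 30 clones and were tested only because all 3 source arrays measured them, which fixed their direction, and the other 16 passed the filter through a clone group. Aspn and Omd lie beside Ogn. In EB-3, 17 were lower and 1 higher, against 17.8% and 17.7% of all probes, with Sparcl1 at least 216-fold, Prelp at least 199.96-fold, Tnc at least 70.0-fold and Lox at least 33.5-fold lower, and in RF8 3 were lower, against 12.3% of all probes, Spon2 by 3.51, Cyr61 by 2.38 and Efemp2 by 2.08.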

How the data were processed

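Total RNA was labelled with Cy3 and hybridised to Agilent mouse oligo arrays (1 colour, scanner G2565BA). The paper describes extraction with Trizol and treatment with Turbo DNA-free under RT-PCR. The authors deposited Feature Extraction output, in which each spot has a processed signal intensity, already background-subtracted, and flags. They also deposited a table of log2 values from GeneSpring GX. Its gene medians are within 0.0001 of 0 in all 41266 rows, and after gene centring is taken into account its differences between arrays matched the scanner values (r at least 0.999968, slope 0.99985 to 1.00005, 18968 probes). Its scale and direction are therefore known, but not the level of each gene. Its column medians were -0.627 to 0.248, and it served as an alternative.

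The members and the gene lists were chosen with earlier results of these data known. Log2 processed signal minus the 75th percentile of each array was fitted over 35 arrays with limma 3.58.1 in R 4.3.3 (lmFit and eBayes, two-sided, Benjamini-Hochberg over all probes tested), with each clone group and each lone array as a group, so that lone arrays were assumed to vary like the clones. Control spots and outlier spots were left out. Probes entered where well above background on all arrays of at least 1 clone group, both ES arrays or all 3 source arrays (28300 probes). Calls needed an adjusted p under 0.05 and 2-fold. Against a level not well above background, "at least" folds use the higher of that level and the lowest level well above background on that array. All 10 genes were named. Of other matrix genes, at most 4 called per comparison were named, and for each of the 10 genes the 3 genes with the highest Pearson's r. Correlations and counts used Python 3.11.15, numpy 2.4.6 and pandas 2.3.3.

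In simulated data, 200 of 28300 probes were changed by 2 on the log2 scale, with noise independent between arrays and no slide effect. Recovered were 82% for 3F against 4F OP clones (3 false calls), 92.5% for PαS against OP clones (5) and 79.5% for sources against clones (4). Smaller changes and slide effects were not simulated, so these values do not give the error rate in the real data. Precision is limited by how many arrays there are, and 56.6% to 71.1% of probes were well above background per array. Whether clones of a group are sister colonies is not given in the sources used here, so p-values measure the spread between these clones. The authors' removal of probes with over 2-fold disagreement between duplicates was not applied. There were 0 columns without a sample. Alternatives were normexp background correction, quantile normalization, the deposited log2 table, other filters, slide and replicate blocks, other probes, each clone left out and 3 clones low in Sox2 and Nanog left out. Leaving out each source array, leaving out 4F-OP-iPS #2 as well, correlations without 3 clones of 3F-OP-iPS, and other settings for the remaining matrix genes were chosen after seeing the data.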

Additional observations from a re-analysis of the deposited data

Results flagged for a closer look

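Of 60 sets of 5 clones (10 genes in 6 groups), 5 held a clone far from the other 4, where chance gives about 1 in 20. Fmod was at -3.34 in 4F-PαS-iPS #3, against -5.58 to -5.25 in the other 4 clones, a gap of 0.851 of the whole range, but #1 and #4 were not well above background, so that the spread of the other 4 is not measured and the gap is uncertain. Fmod was at 0.36 in 4F-OP-iPS #1, against -5.20 to -4.46 (gap 0.867). Ogn was at -1.02 in 4F-PαS-iPS #2, against 0.96 to 1.31 (gap 0.852), and at 1.32 in 4F-TTF-iPS #5, against -0.70 to -0.52 (gap 0.910). Eln was at -5.39 in 4F-PαS-iPS #2, against -4.84 to -4.66 (gap 0.757). Clone #2 of 4F-PαS-iPS thus appears for both Ogn and Eln, in the low direction, and 4F-PαS-iPS #2 and 4F-TTF-iPS #5 were each the one clone of their group on their slide.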

How the results depend on the processing

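Apart from settings that leave out 1 array, 355 values of single genes under alternatives kept their direction and side of the threshold, 14 lost the call and 2 turned direction. With the slide as a random block (correlation 0.241) or without the 3 clones low in Sox2 and Nanog, also with 4F-OP-iPS #2 left out, 0 of the 10 genes were called for 3F against 4F in OP clones and 0 in TTF clones, and with the slide as a fixed block 0 in TTF clones, where the Ogn difference turned to -0.086 (adjusted p = 1). The cause was not tested. Leaving out 1 clone at a time gave 0 to 3 called genes in OP clones and 0 to 1 in TTF clones. For the OP source it gave 7 to 8 and for the TTF source 6 to 7, both directions counted. Leaving out 1 source array gave 7 to 9 for the sources, the losses being Lum without the OP source and Postn and Eln without the TTF source. Leaving out 1 clone or source array, the Eln difference of the sources ranged from -0.51, turned in direction without the TTF source (adjusted p = 0.130), to 2.31.

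With the second probe of the genes that have one, 3 genes were called in EB-3 and 1 in RF8, since the second Dcn probe could not be tested and the second Bgn probe was not called. The latter, well above background in 1 clone, gave 1.22 for RF8 (adjusted p = 0.171) and -1.53 for EB-3 (0.0709). Other lost calls were Postn in EB-3 (-3.41, adjusted p = 0.0508) and Eln in the sources (0.51, 0.0540) with normexp, and Postn in the sources (2.80, 0.0738) and Fmod in the TTF source (4.55, 0.0683) with the slide as a random block, all in limma.

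Replicate numbers did not pair the clones: same-numbered clones of different groups had a median r of -0.00498 over 75 pairs, with 17 over 0.1, against 0.00733 for other numbers. With the replicate block, 2 genes were called in OP clones, 1 in TTF clones and 0 in PαS clones, with Ogn at 1.92 and 1.67 and Postn at 3.26, so no call changed.

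Over all probes, normexp gave 416 calls in place of 1489 for 3F against 4F in OP clones, 598 in place of 1824 in TTF clones and 195 in place of 5 in PαS clones. The random slide block gave 516 and 114 in OP and TTF clones, the fixed block 3 in TTF clones, leaving out the 3 low clones 266 and 1233, and 4F-OP-iPS #2 as well 110 and 1677. That last setting gave 155 in PαS clones, 66 in place of 6 between OP and TTF clones and 6 in place of 334 for the interaction of PαS and OP clones. Between PαS and OP clones there were 562 calls, 189 with normexp, 276 with the fixed block and 71 without the 3 clones. Between PαS and TTF clones there were 206, 36 with normexp and 17 with the random block. Sources against clones gave 11351, 7389 with normexp and 17177 with no filter, EB-3 10063 and 6326 with normexp, and RF8 8113 and 4443. Of the called probes, 5546 of 10893 were higher in the sources with quantile normalization, against 4519 of 11351. In dim genes such as Eln, Fmod and Lum, signal close to background limits what can be measured.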

Other observations

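Related proteoglycans were raised in single clones. In 3F-PαS-iPS #1, Fmod (1.26) and Prelp (4.62), a relative of Fmod that lies near it on chromosome 1, were both the highest of all 30 clones, and Omd was at -0.49. Omd was well above background in 2 further clones, 3F-OP-iPS #3 (-1.04), where Prelp was at 3.32, and 4F-OP-iPS #3 (-5.38). Prelp was called higher in 3F-OP-iPS than in 4F-OP-iPS, with a 3F-OP-iPS mean of 2.61, so that its level in 3F-OP-iPS #3 is part of a group difference. In 4F-OP-iPS #1, Fmod (0.36) and Fn1 (5.21) were high while Lum was not well above background. These are values of 1 array each, chosen after they were seen, and were not tested.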
